A study of Mus musculus with 12 samples.

Results

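The genes described here are the 10 genes of MHC class II antigen presentation, chosen by name from the 40840 genes listed in each library. They were the genes of the classical class II chains, H2-Aa, H2-Ab1 and H2-Eb1, the invariant chain gene Cd74, the H2-DM genes H2-DMa, H2-DMb1 and H2-DMb2, the H2-O genes H2-Oa and H2-Ob, and the class II transactivator gene Ciita. All 10 were present, and all 10 were above the lowest value of the files in each of the 12 libraries.

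Total RNA was sequenced from the immune cell fraction of perfused and digested mouse liver, which the labels call hepatic macrophages. The study asked what a high-fat diet (HFD) does to these cells in nonalcoholic fatty liver disease, and what part caspase-11, a sensor of intracellular lipopolysaccharide, has in it. Each of 4 groups held 3 libraries. WT-NCD and WT-HFD were C57BL/6 mice (C57BL/6J in the methods) on a normal chow diet (NCD) or HFD, and Casp11-/- NCD and Casp11-/- HFD were mice of the strain B6.129S4(D2)-Casp4tm1Yuan/J, which lacks caspase-11 in every cell, on the same diets. The methods describe male mice, 8 to 10 weeks old at the start, fed for 12 weeks. The fraction was separated from hepatocytes by density and not sorted, so it can hold any leukocyte of the liver. A lower value in bulk RNA cannot tell fewer cells of a type from less RNA per cell.

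MHC class II molecules are pairs of an α and a β chain that carry peptides of endocytosed proteins to the surface of B cells, dendritic cells and macrophages, where CD4+ T cells read them. The invariant chain guides the new pair to the endosome and blocks its groove, cathepsins cut it down to a small fragment, H2-DM exchanges that fragment for a peptide, and H2-O inhibits H2-DM, mainly in B cells. CIITA does not bind DNA itself and switches on the whole set by docking on factors that sit on the X and Y boxes of each promoter.

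8 of the 10 genes lie in the MHC region of chromosome 17 in GRCm38, from H2-Oa at chr17:34092340-34095234 to H2-Eb1 at chr17:34305867-34316674, and all of these but H2-Aa are on the plus strand. Ciita lies at chr16:10480059-10528418 on the plus strand. RefSeq promoters (GRCm38.p6) were at hand for 7 of the 10 genes, with 2 starts for H2-DMa, and H2-Ab1, Cd74 and Ciita had none in the table. The bases from -120 to -38 before the RefSeq start are shown for 5 genes, because the X and Y boxes through which CIITA acts are expected in this stretch. Capitals mark AGNAAC, the letters of the core of the X1 box, and ATTGG, those of the Y box, each searched on both strands. A match of letters does not show that a box is in use. The letters were chosen with these promoters in view.
H2-Eb1: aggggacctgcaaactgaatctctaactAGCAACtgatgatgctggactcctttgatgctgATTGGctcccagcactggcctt
H2-Aa: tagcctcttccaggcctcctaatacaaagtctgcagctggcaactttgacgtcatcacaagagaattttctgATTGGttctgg
H2-DMb2: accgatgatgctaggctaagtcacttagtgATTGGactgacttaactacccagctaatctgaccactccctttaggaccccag
H2-Oa: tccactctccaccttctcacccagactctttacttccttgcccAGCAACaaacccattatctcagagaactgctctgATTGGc
H2-Ob: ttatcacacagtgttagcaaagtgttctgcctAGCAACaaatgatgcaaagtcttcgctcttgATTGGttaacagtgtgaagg
These stretches are chr17:34305747-34305829, chr17:34287861-34287943 on the minus strand, chr17:34145129-34145211, chr17:34092259-34092341 and chr17:34238785-34238867. The last 2 bases of the H2-Oa stretch lie in a UTR of the GENCODE vM21 annotation, and H2-DMb1 is not shown because 82 of its 83 bases do. The H2-DMb2 stretch lies inside the GENCODE span of that gene, chr17:34143307-34151555. In the 250 bases upstream of the start, ATTGG was present on either strand in 7 of the 8 promoters of these genes and in 33.9% of all 32851 promoters. AGNAAC followed after 15 to 40 bases by ATTGG, both on the strand of the gene, was present for 4 genes (H2-Eb1, H2-Oa, H2-Ob and H2-DMb1) and in 0.63% of all promoters. The gap was 27 bases in H2-Eb1, 28 in H2-Oa and H2-DMb1 and 25 in H2-Ob. H2-Aa and H2-DMb2 had ATTGG without these letters of the X1 box, which says only that the letters are not in this window.

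The values are the TPM computed by the authors, and none is under 1.01 TPM. TPM are transcript levels corrected for length and scaled to a fixed library total. The totals here ran from 1000353 to 1022495, so the values are treated as a score and TPM only names the unit. They hold no read numbers, so the depth behind each value is unknown. WT-NCD replicate 3 stood apart. In it 39677 genes exceeded this lowest value, while the other 11 libraries had 12940 to 18775 such genes, and over all genes it correlated negatively with each of them (r = -0.266 to -0.068). Calls are therefore counted over all 12 libraries and over the 11 without it, while single fold changes, ratios and correlations are those of the 11 libraries unless stated. Protein-coding genes took 15.7% to 42.4% of the TPM in the 11 libraries, and this share differed between the diets. It was 15.7% to 25.2% in the HFD libraries. It was 33.9% and 37.8% in WT-NCD replicates 1 and 2, and 36.7%, 22.3% and 42.4% in Casp11-/- NCD replicates 1, 2 and 3. Only Casp11-/- NCD replicate 2 lay within the HFD range. Fold changes in TPM between the diets include this difference in share. Values were therefore also taken after the protein-coding genes of every library had been rescaled to a common total. Casp4, the gene of caspase-11, did not separate the genotypes. It was at 5.60 to 15.6 TPM in the 6 WT libraries and at 2.56 to 15.2 TPM in the 6 libraries labelled Casp11-/-. A gene total also counts reads outside the deleted part of the gene, so this value cannot check the genotype labels.

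The genes of the classical chains and Cd74 were among the abundant messages of the fraction. Over the 5 NCD libraries without WT-NCD replicate 3, H2-Aa, H2-Ab1, H2-Eb1 and Cd74 together made up 0.877% to 1.85% of all protein-coding TPM (median 1.63%). Over the 6 HFD libraries they made up 0.584% to 1.69% (median 0.762%). The ranges overlapped because 2 libraries crossed over. Casp11-/- NCD replicate 2 had the lowest share of the NCD libraries, and WT-HFD replicate 3 had the highest of the HFD libraries.

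**Figure D1:**
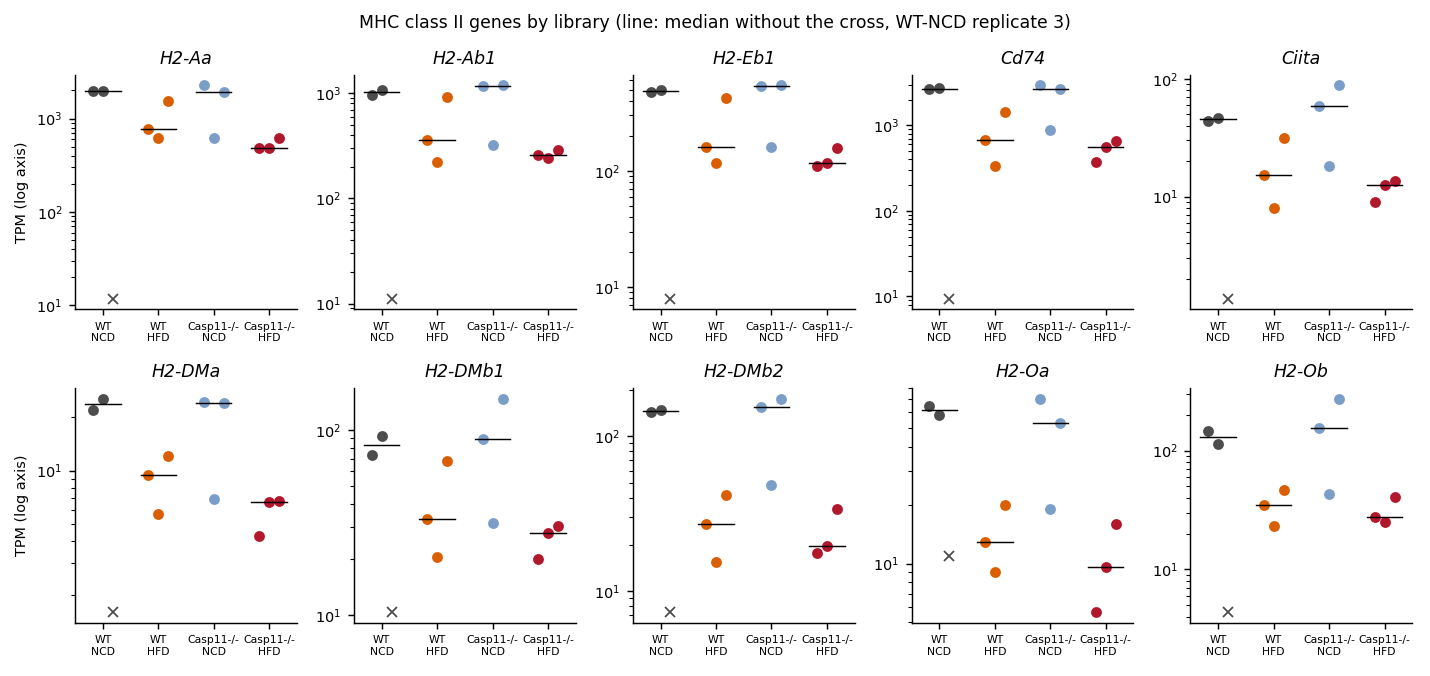
TPM (log axis) of the 10 MHC class II genes in each library, with 1 point per library, a line at the median of each group without WT-NCD replicate 3, and a cross for that library. The HFD points lie lower than most NCD points, Casp11-/- NCD replicate 2 lies among or near the HFD points for most genes, and for H2-DMb2 all 6 HFD libraries (15.5 to 41.6 TPM) lie below the 5 NCD libraries (48.7 to 176 TPM).

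H2-Aa encodes the α chain and H2-Ab1 the β chain of the I-A molecule. In the WT mice H2-Aa was at 1959, 1948 and, in replicate 3, 11.8 TPM on NCD. It was at 765, 624 and 1545 TPM in WT-HFD, at 2274, 626 and 1938 TPM in Casp11-/- NCD, and at 479, 478 and 619 TPM in Casp11-/- HFD. The diets overlapped, because WT-HFD replicates 1 and 3 lay above Casp11-/- NCD replicate 2. H2-Ab1 was at 961, 1084 and 11.2 TPM in WT mice on NCD and at 359, 220 and 916 TPM in WT-HFD. In the mice labelled Casp11-/- it was at 1167, 322 and 1193 TPM on NCD and at 261, 244 and 289 TPM on HFD. H2-Eb1, the β chain gene of the I-E molecule, showed the same libraries high and low, with 479, 493 and 7.97 TPM in WT mice on NCD, 162, 118 and 427 TPM in WT-HFD, 533, 161 and 546 TPM in Casp11-/- NCD, and 110, 118 and 157 TPM in Casp11-/- HFD. H2-Ea, the gene that would give the α chain of I-E and that is not expressed in C57BL/6 mice, was listed at the floor in all 11 libraries and at 12.8 TPM in WT-NCD replicate 3.

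Averaged over the genotypes, these 3 genes were lower on HFD in the 11 libraries by log2 fold changes of -1.27 (SE 0.451) for H2-Aa, -1.41 (SE 0.452) for H2-Ab1 and -1.39 (SE 0.424) for H2-Eb1. These fold changes are on the log2(TPM + 1) scale and come from limma, a linear model that shares information on the spread across genes. H2-Ab1 (adjusted p = 0.0358) and H2-Eb1 (adjusted p = 0.0307) passed an adjusted p of 0.05 over all genes tested, and H2-Aa missed it (adjusted p = 0.0509). After rescaling none of the 3 passed, with log2 fold changes of -0.60 for H2-Aa, -0.75 for H2-Ab1 and -0.72 for H2-Eb1.

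Cd74, on chromosome 18, encodes the invariant chain and was the most abundant of the 10 genes in each of the 5 NCD libraries. Its level was 2625, 2761 and 9.40 TPM in WT mice on NCD, 682, 336 and 1449 TPM in WT-HFD, 2945, 889 and 2645 TPM in Casp11-/- NCD, and 374, 555 and 654 TPM in Casp11-/- HFD. The diets overlapped through the same 2 libraries as for the classical chains. Cd74 fell on HFD over the 11 libraries (log2 fold change -1.92, SE 0.476, adjusted p = 0.0129) and after rescaling (log2 fold change -1.26, adjusted p = 0.0387).

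The H2-DM genes encode the α chain (H2-DMa) and 2 alternative β chains (H2-DMb1 and H2-DMb2) of the peptide exchange factor. H2-DMa was low, at 21.97, 25.5 and 1.60 TPM in WT mice on NCD, 9.42, 5.67 and 12.1 TPM in WT-HFD, 24.4, 6.93 and 24.0 TPM in Casp11-/- NCD, and 4.28, 6.61 and 6.71 TPM in Casp11-/- HFD. H2-DMb1 was at 73.2, 92.9 and 10.4 TPM in WT mice on NCD and at 33.0, 20.5 and 68.1 TPM in WT-HFD. In the mice labelled Casp11-/-, H2-DMb1 was at 89.0, 31.4 and 148 TPM on NCD and at 20.1, 27.6 and 30.3 TPM on HFD. For both genes, Casp11-/- NCD replicate 2 lay within the range of the HFD libraries. H2-DMb2 was at 143, 147 and 7.35 TPM in WT mice on NCD, 27.0, 15.5 and 41.6 TPM in WT-HFD, 154, 48.7 and 176 TPM in Casp11-/- NCD, and 17.7, 19.5 and 34.2 TPM in Casp11-/- HFD. It was the only one of the 10 genes whose 6 HFD libraries all lay below the 5 NCD libraries in TPM. The same separation held for 5.6% of the 17950 genes tested in the 11 libraries.

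All 3 genes fell on HFD over the 11 libraries. H2-DMb2 fell by 2.33 on the log2 scale (SE 0.391, adjusted p = 0.000382), with an adjusted p below that of the other 9 genes, whereas H2-DMa fell by 1.34 (SE 0.376, adjusted p = 0.0225) and H2-DMb1 by 1.34 (SE 0.405, adjusted p = 0.0293). After rescaling, H2-DMb2 (log2 fold change -1.67, adjusted p = 0.0034) and H2-DMa (log2 fold change -0.73, adjusted p = 0.0409) still passed, and H2-DMb1 did not (log2 fold change -0.69). The annotated transcripts of H2-DMb1 and H2-DMb2 share 254 stretches of 75 bases, the length of the reads. These made up 15.8% of such stretches in H2-DMb1 and 14.6% in H2-DMb2. No other pair of the 10 genes shared one, so the split of reads between these 2 genes is the least certain of the set.

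H2-Oa and H2-Ob encode the α and β chains of H2-O, the inhibitor of H2-DM. H2-Oa was at 64.8, 58.5 and 10.9 TPM in WT mice on NCD, 12.9, 9.002 and 20.0 TPM in WT-HFD, 70.8, 19.2 and 53.2 TPM in Casp11-/- NCD, and 5.64, 9.63 and 16.1 TPM in Casp11-/- HFD. H2-Ob was at 146, 113 and 4.39 TPM in WT mice on NCD, 35.1, 23.3 and 46.1 TPM in WT-HFD, 154, 43.4 and 274 TPM in Casp11-/- NCD, and 27.9, 25.1 and 40.9 TPM in Casp11-/- HFD. For each of them a single pair of libraries crossed, WT-HFD replicate 3 above Casp11-/- NCD replicate 2. Both genes fell on HFD over the 11 libraries, H2-Oa by 2.07 on the log2 scale (SE 0.388, adjusted p = 0.0012) and H2-Ob by 1.94 (SE 0.411, adjusted p = 0.00394). Both also passed after rescaling, with log2 fold changes of -1.44 for H2-Oa (adjusted p = 0.00699) and -1.28 for H2-Ob (adjusted p = 0.017). On the rescaled values H2-Oa, H2-Ob and H2-DMb2 were separated without overlap between the diets, as were 4.25% of the 12366 protein-coding genes tested, in the direction HFD below NCD.

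Ciita, the transactivator gene, was at 44.2, 46.4 and 1.36 TPM in WT mice on NCD, 15.2, 7.97 and 31.3 TPM in WT-HFD, 59.0, 18.4 and 88.4 TPM in Casp11-/- NCD, and 9.003, 12.7 and 13.6 TPM in Casp11-/- HFD. Again WT-HFD replicate 3 was above Casp11-/- NCD replicate 2. Ciita fell on HFD over the 11 libraries (log2 fold change -1.68, SE 0.41, adjusted p = 0.0117) and after rescaling (log2 fold change -1.05, adjusted p = 0.0295).

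Counted together for HFD against NCD averaged over the genotypes, all 10 genes had a negative log2 fold change in each of the 3 fits, and the number that passed depended on the fit. Over all 12 libraries none passed (0 of 10), 2 had an unadjusted p under 0.05, and 0.554% of the 19498 genes tested passed. The log2 fold changes over 12 libraries ran from -1.67 (H2-Oa) to -0.06 (H2-Aa), with adjusted p-values of 0.195 to 0.977. Over the 11 libraries, 9 of 10 passed, against 18.3% of 17950 genes, or 17.3% counted in the lower direction alone and 1.07% in the higher. After rescaling, 6 of 10 passed, against 13.7% of 12366 genes, or 6.25% lower and 7.43% higher. The median log2 fold change of the 10 genes was -0.83, -1.55 and -0.90 in these fits, beside medians over all genes tested of -0.61, -0.39 and -0.05. The 9 genes were not equally firm. When each of the 11 libraries was left out in turn, between 4 and 10 of the genes passed in TPM and between 2 and 9 after rescaling. Of all genes tested, 3.18% to 48.2% passed in TPM and 1.75% to 32.5% after rescaling. Both shares were highest without Casp11-/- NCD replicate 2, where 10 and 9 of the genes passed. H2-DMb2 and H2-Oa passed in all 11 of these fits on both scales, H2-Ob in 11 in TPM and 9 after rescaling, and Ciita in 11 and 5. Cd74 passed in 9 and 2, and the remaining 5 genes passed in 6 or fewer of the fits in TPM.

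**Figure D2:**
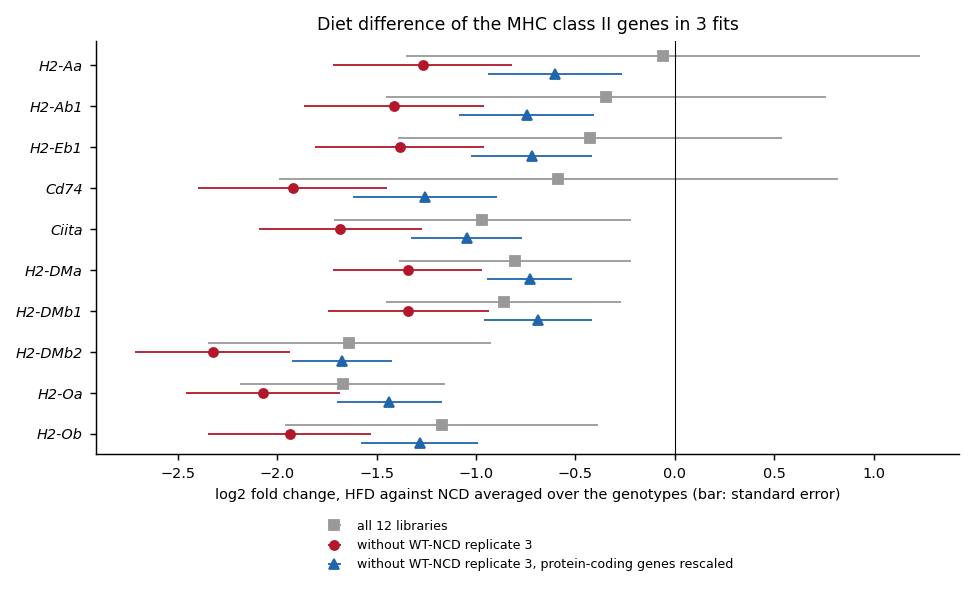
Log2 fold change of each gene for HFD against NCD averaged over the genotypes (points) with its standard error (bars) from 3 limma fits: all 12 libraries (grey squares), 11 libraries without WT-NCD replicate 3 (red circles), and the same 11 libraries with protein-coding genes rescaled (blue triangles). H2-DMb2, H2-Oa and H2-Ob lie farthest below 0 in the fits over 11 libraries (H2-DMb2 at -2.33 in TPM), and the bars are widest over 12 libraries.

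Within 1 genotype fewer genes passed, and in WT mice the direction of 4 genes depended on WT-NCD replicate 3. For WT-HFD against WT-NCD over all 12 libraries no gene of the 10 passed (0.113% of genes did, and none of the 10 had an unadjusted p under 0.05). The log2 fold changes ranged from -1.33 for H2-Oa to 1.31 for H2-Aa, and H2-Aa, H2-Ab1, H2-Eb1 and Cd74 were positive. Over the 11 libraries all 10 log2 fold changes were negative, with a median of -1.41, and H2-DMb2 alone passed (log2 fold change -2.43, SE 0.583, adjusted p = 0.021), against 2.18% of genes. After rescaling no gene of the 10 passed in WT mice, although 4 had an unadjusted p under 0.05, and 0.809% of genes did. H2-DMb2 then had an adjusted p of 0.0537. For Casp11-/- HFD against Casp11-/- NCD all 10 were lower with a median log2 fold change of -1.71. None of the 10 passed with the spread of all 12 libraries, where 1 had an unadjusted p under 0.05 and 0% of all genes passed. With the spread of the 11 libraries H2-DMb2 alone passed (log2 fold change -2.22, SE 0.521, adjusted p = 0.0363), against 1.1% of genes. After rescaling H2-DMb2 (log2 fold change -1.65, adjusted p = 0.0277) and H2-Oa (log2 fold change -1.46, adjusted p = 0.0427) passed, against 3.55% of genes.

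Between the genotypes no gene of the 10 passed in limma on either diet in any of the 3 fits, and none had an unadjusted p under 0.05. On NCD, the 10 genes had log2 fold changes for Casp11-/- against WT from -0.55 (H2-Oa) to 0.02 (Ciita) over the 11 libraries, with SEs of 0.56 to 0.709. Over all 12 libraries these ran from 0.25 to 2.17, with SEs of 0.728 to 1.99, so their sign turned with WT-NCD replicate 3. Of all genes, 0.0557% passed over the 11 libraries and 0% over the 12 libraries and after rescaling. On HFD, all 10 genes were lower in the libraries labelled Casp11-/- in each fit, by log2 fold changes of -0.79 (H2-Aa) to -0.13 (H2-Ob) over the 11 libraries with SEs of 0.501 to 0.634, and 0% of all genes passed. That shared direction rested on WT-HFD replicate 3. Without it, in the fit over the other 11 libraries, the median log2 fold change was -0.06 and 4 genes were positive, Cd74 at 0.10, H2-DMb2 at 0.15, H2-Ob at 0.09 and Ciita at 0.07. The interaction of diet and genotype, which asks whether the diet difference itself differs between the genotypes, passed for none of the 10 genes, and none had an unadjusted p under 0.05. Over the 11 libraries it lay between -0.43 (Ciita, SE 0.82) and 0.22 (H2-DMb2, SE 0.782) on the log2 scale, and 0.00557% of genes passed. Over the 12 libraries and after rescaling 0% did. The standard errors of the interaction were 0.752 to 0.951 over the 11 libraries. For each of the 10 genes the groups ran, by their medians, from the 2 NCD groups to WT-HFD and then Casp11-/- HFD, and neighbours of the same diet were not told apart by these tests.

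Ratios between genes of the same library do not depend on the scaling of that library. Over the 11 libraries H2-DMb2, H2-Oa and Cd74 were lower on HFD relative to H2-Ab1. H2-DMb2 was at 0.132 to 0.151 of the TPM of H2-Ab1 in the 5 NCD libraries and at 0.0454 to 0.118 in the 6 HFD libraries. The diets did not overlap, and the mean log2 ratio differed by -0.96 (two-sided exact permutation test of 6 against 5 libraries, p = 0.00433, the smallest that the 462 splits allow, and 0.011 after Benjamini-Hochberg adjustment over the 33 ratios tested). Of the other 17949 genes, 0.318% had a ratio to H2-Ab1 lower on HFD without overlap. The B cell gene Cd79a was one of these, at 0.402 to 0.548 of H2-Ab1 on NCD and 0.110 to 0.315 on HFD. Its log2 difference was -1.27 (exact permutation p = 0.00433, adjusted p = 0.011), larger than that of H2-DMb2. C1qb of the Kupffer cell list and Itgax of the dendritic cell list were higher relative to H2-Ab1, by log2 differences of 3.68 and 0.82. For H2-Oa the log2 difference was -0.74 and for Cd74 -0.50, each with p = 0.013 by the exact permutation test and 0.0214 after adjustment, with ranges that overlapped. In WT mice alone H2-DMb2 differed by -1.19, H2-Oa by -0.93 and Cd74 by -0.67 (exact p = 0.2 for each). In Casp11-/- mice alone they differed by -0.73, -0.59 and -0.35 (exact p = 0.1, 0.2 and 0.3). There only H2-DMb2 reached the smallest p that 3 libraries against 3 allow. Cd74 was at 2.22 to 2.76 times H2-Ab1 on NCD and at 1.43 to 2.28 times on HFD. H2-Ob (log2 difference -0.59, exact p = 0.0563) and Ciita (log2 difference -0.39, exact p = 0.0606) missed the threshold. With WT-NCD replicate 3 included, the log2 difference was -1.33 for H2-DMb2 (exact p = 0.00217), -1.43 for H2-Oa (exact p = 0.00649) and -0.24 for Cd74 (exact p = 0.476). H2-Ob (-0.83, exact p = 0.0281) and Ciita (-0.59, exact p = 0.0303) then had an unadjusted p under 0.05. In WT-NCD replicate 3 itself the ratio to H2-Ab1 was 0.659 for H2-DMb2, 0.976 for H2-Oa, 0.394 for H2-Ob and 0.122 for Ciita. Each of these lay above the other NCD libraries (0.0445 to 0.0674 for H2-Oa), and Cd74, at 0.843, lay below them. The values with this library included are therefore not a check on those without it. Over the 11 libraries the ratios of the other 4 genes to H2-Ab1 differed by 0.15 (H2-Aa), 0.03 (H2-Eb1), 0.02 (H2-DMb1) and -0.03 (H2-DMa) on the log2 scale, with exact p-values of 0.286 to 0.918. H2-Eb1 stayed within 0.422 to 0.544 of H2-Ab1 in all 11 libraries.

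The 2 β chain genes of H2-DM changed places. H2-DMb2 was at 1.95 and 1.58 times H2-DMb1 in WT-NCD replicates 1 and 2 and at 1.73, 1.55 and 1.18 times in Casp11-/- NCD. On HFD it was at 0.818, 0.757 and 0.611 times H2-DMb1 in WT mice and at 0.883, 0.706 and 1.13 times in the mice labelled Casp11-/-. H2-DMb2 was thus the higher of the pair in all 5 NCD libraries and the lower in 5 of 6 HFD libraries. The ratio was on average 1.97 times as high on NCD (log2 difference -0.98 for HFD against NCD, exact permutation p = 0.00433, adjusted p = 0.011). Within a genotype the direction was the same, at -1.28 in WT and -0.73 in Casp11-/- mice, with exact p-values of 0.2 and 0.1, the smallest that 3 libraries against 2 and 3 against 3 allow. In WT-NCD replicate 3 the ratio was 0.709, below the 5 other NCD libraries, and with it included the log2 difference was -0.79 (exact permutation p = 0.0173). The 2 genes share 15.8% (H2-DMb1) and 14.6% (H2-DMb2) of their 75-base stretches, so the split of reads between them is uncertain. The share of all genes with such a separation relative to H2-DMb1 was not computed.

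**Figure D3:**
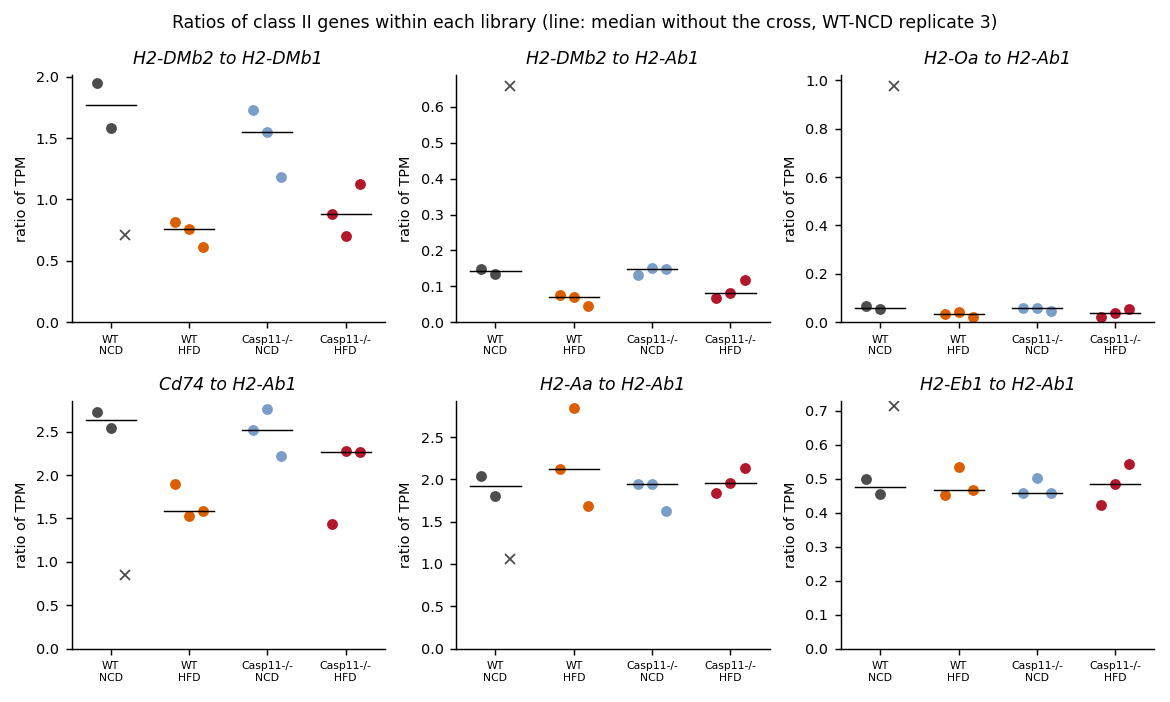
Ratios of TPM between class II genes within each library (y axes from 0), with 1 point per library, a line at the median of each group without WT-NCD replicate 3, and a cross for that library. H2-DMb2 relative to H2-DMb1 is above 1.18 in the 5 NCD libraries and below 1.13 in the 6 HFD libraries, while H2-Eb1 relative to H2-Ab1 stays near 0.5 on both diets.

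Relative to Ptprc, the gene of the leukocyte surface protein CD45, 3 of the 10 genes were lower on HFD without overlap, against 1.84% of genes. H2-DMb2 was at 0.336 to 0.726 of Ptprc on NCD and at 0.103 to 0.285 on HFD (log2 difference -1.64). H2-Ob differed by -1.27 and Ciita by -1.07 on the log2 scale, each with an exact permutation p of 0.00433 and an adjusted p of 0.011. The ratios of H2-Aa, H2-Ab1, H2-Eb1 and H2-DMa to Ptprc differed by -0.53 to -0.72, with exact p-values of 0.0563 to 0.126. The ratios of the other 3 genes overlapped between the diets and passed, with log2 differences of -1.42 for H2-Oa (exact p = 0.00866, adjusted p = 0.0204), -1.19 for Cd74 and -0.67 for H2-DMb1 (exact p = 0.013 and adjusted p = 0.0214 for both). With WT-NCD replicate 3 included, all 10 differences stayed negative and H2-Aa alone had an exact p above 0.05, at 0.173. H2-Ab1, H2-Eb1 and H2-DMa then had exact p-values of 0.0346, 0.0281 and 0.0303. In WT-NCD replicate 3 itself H2-DMb1 was at 4.57 times Ptprc, against 0.272 to 0.458 in the other NCD libraries. H2-Oa was at 4.805 times Ptprc there, against 0.102 to 0.328. H2-Aa (5.21) and H2-Ab1 (4.92) lay within the range of the other NCD libraries and Cd74 (4.15) below it. The values with this library included are therefore not a check on those without it.

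Over the 11 libraries the 10 genes varied together. On rescaled log2 values Pearson's r between 2 of them ran from 0.705 (H2-Aa with H2-Ob) to 0.986 (H2-Ab1 with H2-Eb1) over 45 pairs, with a median of 0.882. With the B cell gene Cd79a, r ran from 0.706 (H2-Aa) to 0.988 (H2-DMb2) over the 10 genes. The r of H2-DMb2 with Cd79a was thus above that of any pair within the set. H2-Oa had an r of 0.95 with Cd79a, and H2-Ob an r of 0.973 with the B cell gene Ms4a1. These points share the diets and the library totals, so the values are a description. The protein-coding genes outside the set whose levels ran most nearly with the mean of H2-Aa, H2-Ab1, H2-Eb1 and Cd74 were Il2rg (r = 0.969), Slamf7 (r = 0.968), Trit1 (r = 0.958), Septin6 (r = 0.955) and Tagap (r = 0.953), among 7436 genes compared over 11 libraries. Spearman's rho was 0.864 to 0.936 for these 5 genes.

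Other genes of the pathway were taken from lists by role, and their counts stand beside 17.3% of all genes lower and 1.07% higher over the 11 libraries, and 6.25% lower and 7.43% higher after rescaling. None of the 10 lysosomal proteases and other genes that process antigen or the invariant chain passed over the 11 libraries in either direction, and their median log2 fold change on HFD was 0.03. Marchf1, whose product marks class II molecules for turnover (log2 fold change -0.98, adjusted p = 0.0762), and Ctsz (log2 fold change -0.99, adjusted p = 0.0639) missed the threshold, Ctsz with the smaller p. After rescaling 4 of the 10 rose, namely Lgmn, which encodes legumain (log2 fold change 1.23, adjusted p = 0.0079), and the cathepsin genes Ctsb (0.99, adjusted p = 0.018), Ctsl (1.05, adjusted p = 0.0294) and Ctsd (0.69, adjusted p = 0.0414). Of 6 costimulatory and checkpoint ligand genes, 2 fell and none rose over the 11 libraries, Icosl (log2 fold change -1.72, adjusted p = 0.0105) and Cd40 (log2 fold change -1.30, adjusted p = 0.0252), and both passed after rescaling. Cd80 and Cd86, the ligands of CD28, were at log2 fold changes of -0.10 and 0.06.

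Among 10 genes of transcription factors that act on class II promoters or on Ciita, 4 fell over the 11 libraries and none rose. Irf4, a factor of activated B cells, plasma cells and dendritic cells, fell by 2.62 on the log2 scale (adjusted p = 0.00044). Rfxank, a subunit of the RFX complex that binds the X box, fell by 1.20 (adjusted p = 0.0233). Irf8 fell by 1.15 (adjusted p = 0.0432) and Nfyc, a subunit of the NF-Y complex that binds the Y box, by 1.10 (adjusted p = 0.0492). After rescaling Irf4 and Rfxank passed. H2-Eb2, a class II β chain gene beside H2-Eb1, was at 16.9 to 26.7 TPM in 4 of the 5 NCD libraries, at 5.65 TPM in Casp11-/- NCD replicate 2 and at 3.42 to 9.14 TPM on HFD, and it fell over the 11 libraries (log2 fold change -1.61, adjusted p = 0.0131). Of 7 genes of the interferon-γ pathway, which induces Ciita, only Ifng fell over the 11 libraries (log2 fold change -1.51, adjusted p = 0.019), and none of the 7 passed after rescaling.

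Class I presentation genes were compared as the other presentation route. Over the 11 libraries 3 of 13 fell, a share near that of all genes (17.3%), and none rose. These were Tap2 (log2 fold change -1.27, adjusted p = 0.0284), Tapbp (-1.15, adjusted p = 0.0425) and Psmb10 (-1.08, adjusted p = 0.0435). After rescaling none fell and Erap1, which trims class I peptides, rose (log2 fold change 0.79, adjusted p = 0.0164). The median log2 fold change was -0.95 in TPM and -0.32 after rescaling, beside -1.55 and -0.90 for the 10 class II genes. Over all 12 libraries no gene of these pathway lists passed.

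Markers of some cell types differed between the diets as well. Their counts stand beside 17.3% of all genes lower and 1.07% higher over the 11 libraries, and 6.25% and 7.43% after rescaling. Over all 12 libraries 0.554% of genes passed in either direction. All 10 B cell genes fell over the 11 libraries (8 of 10 after rescaling). Cd79a, a chain of the B cell receptor, was at 527 and 538 TPM in the first 2 WT-NCD libraries, at 571, 158 and 480 TPM in Casp11-/- NCD and at 41.4 to 101 TPM in the 6 HFD libraries (log2 fold change -2.69, adjusted p = 8.43e-05). The summed rescaled TPM of the B cell list was 634 to 1498 on NCD (median 1317) and 267 to 443 on HFD (median 333). Casp11-/- NCD replicate 2, which was low in the class II genes, had the 634. Kupffer cell genes went the other way, with 9 of 10 higher over the 11 libraries, 10 of 10 after rescaling, and 6 of 10 over all 12 libraries. Their sum was 56.5 to 90.3 on NCD and 341 to 963 on HFD, and Clec4f, a defining gene of Kupffer cells, rose by a log2 fold change of 2.93 (adjusted p = 2.09e-05). Of 10 conventional dendritic cell genes, 2 fell over the 11 libraries (Ccr7 and Wdfy4), and after rescaling 2 rose (Clec9a and Zbtb46) and these 2 fell. The sum of that list was 142 to 340 on NCD and 121 to 266 on HFD, so the diets overlapped. Ccr7 and Wdfy4 weighed heavily in this sum, at 76.6 and 68.8 of 209.9 in WT-NCD replicate 1. In WT-HFD replicate 1 they were at 27.9 and 37.0 of 168.4. The sum is therefore not a measure of the other genes of the list. Over the 11 libraries 5 of 10 T cell genes and 6 of 6 NK cell genes fell, 1 of 10 monocyte genes and 1 of 6 plasmacytoid dendritic cell genes fell, 4 of 6 sinusoidal endothelial genes rose, and 0 of 6 neutrophil and 0 of 6 hepatocyte genes passed. For monocyte and for both dendritic cell lists, the share that fell over the 11 libraries was near or below that of all genes. Over all 12 libraries no gene of the cell type lists passed other than the 6 Kupffer cell genes. Casp11-/- HFD replicate 2 stood apart in neutrophil genes, whose sum was 4121 TPM there and 102 to 411 TPM in the other HFD libraries. Without that library as well, 7 of the 10 class II genes passed in TPM and 4 after rescaling, against 10.4% and 11.2% of all genes. Hepatocyte genes were abundant in the fraction, with Alb at 4445 to 18320 TPM in the 11 libraries.

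**Figure D4:**
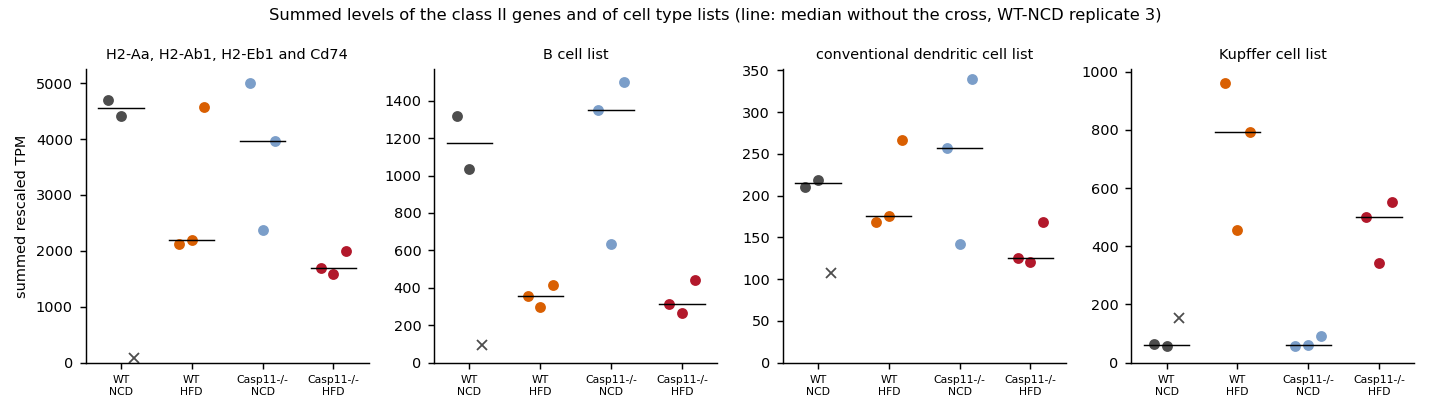
Summed TPM after rescaling of protein-coding genes (y axes from 0) for the 4 abundant class II genes and for the B cell, conventional dendritic cell and Kupffer cell lists, with 1 point per library, a line at the median of each group without WT-NCD replicate 3, and a cross for that library. The B cell sums of the 6 HFD libraries (267 to 443) lie below the 5 NCD libraries (634 to 1498), and the Kupffer cell sums lie above them (341 to 963 against 56.5 to 90.3).

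Set against the B cell gene Cd79a, no class II gene was lower on HFD on average. H2-Aa was at 3.62 to 4.03 times Cd79a in the 5 NCD libraries and at 6.80 to 15.4 times on HFD, and the ratio to Cd79a was higher on HFD without overlap for 6 of the 10 genes. This share is below the background, since 80.9% of genes had a ratio to Cd79a higher on HFD without overlap, and for only 0.0111% was it lower without overlap. The 4 genes whose ratios to Cd79a overlapped were H2-DMb2 (0.270 to 0.366 on NCD and 0.328 to 0.413 on HFD), H2-Oa, H2-Ob and Ciita, with exact permutation p-values of 0.013 to 0.0303. With WT-NCD replicate 3 included, the log2 ratio to Cd79a differed by 0.16 for H2-DMb2 (exact p = 0.374) and by 0.06 for H2-Oa (exact p = 0.968). The cell types of the fraction were not counted, and the part that the differences in these markers have in the lower class II values was not tested.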

How the data were processed

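RNA-seq values were deposited for 12 libraries, with 3 in each of 4 groups, which were assigned from the sample titles. The value column in the file of Casp11-/- HFD replicate 2 has a header that differs from its sample title by a dropped digit, and its group was taken from the title. The authors aligned 75-base single-end reads of stranded total RNA to mm10 (GRCm38.p6) with STAR, and Qlucore Omics Explorer gave TPM. These deposited values are treated as a score, because low values had been raised to a floor of 1.01 and the totals exceed the fixed total of TPM. The design had assumed plain TPM, and its test on a log scale was kept. From each file 6 lines without a gene name were dropped. The values hold no counts, so depth and counting error are unknown.

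The 10 genes and the lists of other genes were chosen with earlier results of these data known. Levels were compared on log2(TPM + 1) with limma 3.58.1 in R 4.3.3 (trended spread shared by the 4 groups, two-sided tests, Benjamini-Hochberg adjustment over all genes that exceeded the floor in 3 or more libraries). The comparisons were HFD with NCD in each genotype and averaged over both, Casp11-/- with WT on each diet, and their interaction. All 12 libraries made up the planned fit. Fits without WT-NCD replicate 3 stand beside it, in TPM and with the 21705 protein-coding genes of RefSeq rescaled to a common total. The limma fit was first tested on simulated data for WT-HFD against WT-NCD alone, over all 12 libraries and without WT-NCD replicate 3. The simulated spread of a gene was equal in every library. Other comparisons, rescaling, the replicate block and library weights were not tested in this way. Ratios of genes within a library were compared by an exact permutation test in SciPy over 6 HFD and 5 NCD libraries. The libraries were taken as separate samples, and if they do not come from separate mice, p-values measure only a technical spread. Named genes were the 10 members, those of each pathway list with an adjusted p under 0.05 over the 11 libraries (at most 4 by p, otherwise the 1 of smallest p), the 5 most similar genes and abundant markers. Marchf1, Cd80, Cd86, Erap1, the cathepsin genes, Lgmn, Clec4f, Ccr7, Wdfy4, Clec9a and Zbtb46 were named after their values were seen. Promoter stretches came from RefSeq (GRCm38.p6), and coordinates, lengths and UTRs from GENCODE vM21.

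Alternatives were other filters on low values, a pseudocount of 0.1, the spread of the 2 groups compared, a replicate block, library weights, rescaling, and each library left out in turn.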

Additional observations from a re-analysis of the deposited data

How the results depend on the processing

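Over all 12 libraries the number of the 10 genes that passed was 0 in each comparison. It stayed at 0 for other filters on low values, a pseudocount of 0.1, and, in the averaged diet comparison, the replicate block, which gave 0 in the other comparisons too. No label says that the replicate numbers pair the samples. The deviations of same-numbered libraries from their group means correlated at -0.642 to 0.47, and 7 of 18 pairs exceeded 0.1. WT-NCD replicate 3 is among these libraries, and the values do not exclude a pairing or a shared batch. The block lowered the calls over all genes from 108 to 16 in the averaged diet comparison and from 22 to 0 in WT mice. Library weights from limma, which gave WT-NCD replicate 3 a weight of 0.01, led to 10 genes passing in each of the 3 diet comparisons. Of the 19498 genes tested, 9550 passed there in WT mice, 9606 in Casp11-/- mice and 11752 averaged. The median log2 fold changes of the 10 genes were -1.47 in WT mice and -1.78 averaged. Their medians were 0.10 for Casp11-/- NCD against WT-NCD and -0.47 for the interaction. Rescaling alone let 1 gene pass in the averaged comparison, and rescaling without WT-NCD replicate 3 let 6 pass there and 2 in Casp11-/- mice, with medians of -0.29 for Casp11-/- NCD against WT-NCD and -0.31 for the interaction. The spread of the 2 groups compared let 1 gene pass in Casp11-/- mice, beside 300 of all 14954 genes tested. Over all genes, 108 passed in the averaged comparison with all 12 libraries, 608 with genes above the floor in 11 libraries only, 455 with rescaling, 3289 without WT-NCD replicate 3, 1692 with both, and 11752 with library weights.

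With each library left out in turn, the members that passed numbered 0 to 1 in WT mice, 0 to 1 in Casp11-/- mice, 0 to 9 averaged, and 0 in the genotype comparisons and the interaction. The higher counts came without WT-NCD replicate 3. The median log2 fold change ran from -1.41 to 0.57 in WT mice, from -2.30 to -1.30 in Casp11-/- mice, from -1.55 to -0.54 averaged, from -0.42 to 2.23 for Casp11-/- NCD against WT-NCD, from -0.86 to -0.06 for Casp11-/- HFD against WT-HFD, and from -2.50 to -0.15 for the interaction. Of the 11 libraries, leaving out 1 more gave 4 to 10 genes in TPM and 2 to 9 rescaled. In TPM the lowest came without WT-NCD replicate 2 or WT-HFD replicate 2 and the highest without WT-HFD replicate 3 or Casp11-/- NCD replicate 2. Rescaled, the lowest came without WT-NCD replicate 1 or 2 and the highest without Casp11-/- NCD replicate 2. Without Casp11-/- NCD replicate 2, 48.2% of all genes passed in TPM and 32.5% rescaled. Without WT-NCD replicate 2, 3.18% and 1.75% did.

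Signs turned for single genes in WT mice. With library weights H2-Aa was at -1.25, H2-Ab1 at -1.41, H2-Eb1 at -1.45 and Cd74 at -1.95, and with rescaling without WT-NCD replicate 3 they were at -0.36, -0.54, -0.52 and -1.21. Rescaling over 12 libraries put H2-DMa at 0.087, H2-DMb1 at 0.10 and Ciita at 0.34, and the pseudocount of 0.1 put Ciita at 0.12. Averaged over the genotypes, rescaling over 12 libraries put H2-Aa at 0.39, H2-Ab1 at 0.11 and H2-Eb1 at 0.031. In WT mice the values with 1 library left out ran from -1.11 to 2.52 for H2-Aa, -1.29 to 1.95 for H2-Ab1, -1.27 to 1.62 for H2-Eb1, -1.96 to 2.07 for Cd74, -1.35 to 0.33 for H2-DMa, -1.18 to 0.35 for H2-DMb1, -1.91 to 0.48 for H2-Ob and -1.47 to 0.69 for Ciita. Averaged, they ran from -1.27 to 0.55 for H2-Aa, -1.41 to 0.21 for H2-Ab1, -1.39 to 0.06 for H2-Eb1 and -1.92 to 0.09 for Cd74. The cause was not tested.

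Alternatives for the ratios were chosen after the data were seen. The log2 ratio of H2-DMb2 to H2-DMb1 differed by -1.28 in WT mice alone (exact p = 0.2) and by -0.73 in Casp11-/- mice alone (exact p = 0.1), the smallest p-values these numbers of libraries allow, and by -1.08 to -0.90 with 1 of the 11 libraries left out. Relative to H2-Ab1, H2-Eb1 turned to -0.074 and H2-DMb1 to -0.54 with WT-NCD replicate 3 included, and H2-DMa to 0.064 and H2-DMb1 to -0.005 in Casp11-/- mice alone. With 1 library left out these ran from -0.01 to 0.063 for H2-Eb1, -0.103 to 0.105 for H2-DMa and -0.046 to 0.131 for H2-DMb1. Read depth could not be weighed, since the files hold no counts.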
